A study of Saccharomyces cerevisiae W303 with 86 samples.

Results

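The mitochondrial ribosome of budding yeast is built from a large and a small subunit, and the nuclear genes for the proteins of the small subunit are described here. They were taken as 33 systematic identifiers listed by name (the MRPS, RSM and MRP genes of the small subunit, with NAM9, PET123, SWS2, EHD3 and KGD4, which is also called YMR31). The list was made by name and not by a rule on measured values, though with earlier results of these data known. All 33 were found among the 7126 genes and other features of every library, and all passed the filter on low values in every set. By role, 18 encode homologues of bacterial small subunit proteins and 15 were placed with the others, most of which belong to mitochondrial ribosomes. KGD4, placed with the others, encodes a subunit of the alpha-ketoglutarate dehydrogenase complex and was kept because the list names it. MRP51 was placed with the others although its protein is now named after bacterial S1.

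The study compared Saccharomyces cerevisiae W303-1A, labelled so in every group, in 86 libraries. They form 29 groups in 7 sets, each called here by the gene or system it varied. All cultures were in mid-log phase in synthetic medium with 2% glucose. The OXPHOS set held wild type (6 libraries) and strains that were cor1, cox9, atp7 or rho0, that is without a subunit of complex III, of complex IV or of the ATP synthase, or without mitochondrial DNA. The PUF3 set held wild type, puf3, atp7, atp7 puf3, rho0 and puf3 rho0. The Puf3-15A set held wild type, puf3-15A, rho0 and puf3-15A rho0, where the allele was made to block hyperphosphorylation of the protein. The SNF1 set held wild type and snf1, each without treatment or after 25 µg/ml ethidium bromide (EB) for 48 h. Column headers of the EB libraries call them r0, and whether cells without mitochondrial DNA or treated cells are meant was not settled, so the groups follow the labels. The MIG1 set held snf1 and snf1 mig1, both after the same EB treatment. The INH1 set held wild type, rho0, and rho0 with INH1 under the CUP1 promoter without copper or after 10 mM CuSO4 for 12 h. Copper was given only to the strain with the construct, so copper and INH1 expression cannot be told apart. Apart from the 6 wild-type libraries of the OXPHOS set, mRNA groups had 3 biological replicates. Ribosome footprints were sequenced for wild type, rho0, puf3 and puf3 rho0, with 2 replicates each.

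The mitochondrial ribosome translates a handful of very hydrophobic proteins encoded in mitochondrial DNA, nearly all of them subunits of the respiratory chain and the ATP synthase. Its small subunit carries an rRNA and the protein Var1 from mitochondrial DNA, reads the mRNA and holds the decoding site, whereas its other proteins are made in the cytosol and imported. Puf3 is an RNA-binding protein that binds the 3′ ends of many mRNAs for mitochondrial proteins, those of this ribosome among them, and is known both for speeding their decay on glucose and for promoting their use when respiration is needed. Snf1 is the yeast AMP-activated kinase that lifts glucose repression, Mig1 is a repressor that it inactivates, and Inh1 inhibits ATP hydrolysis by the ATP synthase. Cells without mitochondrial DNA have no mitochondrial translation to carry out.

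Values are RPKM as deposited, that is reads scaled to gene length and to the reads of the library. Changes are differences of log2(RPKM + 1) after rescaling within a set, from limma fitted over all genes, and a gene is called at a Benjamini-Hochberg adjusted p under 0.05. RPKM are shares of a library, so less of an mRNA per cell and more of the other mRNAs cannot be told apart. The mRNA libraries held 8622304 to 71107951 recovered reads, and the gene with the fewest had 144 reads in a library. The footprint libraries held 1149906 to 2983580 reads, with 42 at the lowest. COR1, COX9, ATP7, PUF3, SNF1 and MIG1 were at or below 1.77 RPKM in each of the libraries labelled as lacking them and at or above 18.8 RPKM in all others. INH1 was at 77.6 RPKM ± 2.17 (SD, n = 3) in rho0, 295 ± 7.75 with the construct and 1931 ± 22.2 after copper.

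Some groups stood apart in genes that mark the mating type. The summed RPKM of 5 a-specific genes (MFA1, MFA2, STE2, STE6, BAR1) was 1025 to 2964 in the libraries of most groups but 544 to 805 in wild type of the PUF3 set. It was 13.4 to 29.6 in wild type of the footprint set, 17.8 to 25.2 in wild type of the INH1 set, and 17.7 to 37.8 in the snf1 groups of the SNF1 and MIG1 sets. The sum of 5 haploid genes (HO, RME1, STE18, GPA1, NEJ1) followed, at 128 to 153 in wild type of the PUF3 set, 6.21 to 57.5 in the other low groups and 266 to 485 elsewhere, and 2 of these 5 were under 1 RPKM in both wild-type footprint libraries. Comparisons of those groups with the others therefore differ in these genes too: PUF3 deletion, atp7 and rho0 against wild type of the PUF3 set with the tests of differences that use this wild type, rho0 against wild type of the INH1 and footprint sets, PUF3 deletion against wild type in footprints, and SNF1 deletion with or without EB. Their part in the results was not tested. The OXPHOS and Puf3-15A sets have no such group, and neither do the comparisons among rho0 and atp7 strains of the PUF3 set. Wild-type libraries 4 to 6 of the OXPHOS set, which the column headers number 1 to 3 again, stood apart from libraries 1 to 3: in 26 of the 33 genes each of libraries 1 to 3 was above each of 4 to 6, and in 0 below, against 37.3% and 20.4% of 6007 protein-coding genes.

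In wild type the small subunit genes were expressed at similar, moderate levels. The median over the 33 genes was 83.6 RPKM in the OXPHOS set and 107 RPKM at the highest, in the SNF1 set, against medians of 43.3 and 46.0 RPKM over 6007 protein-coding genes. MRPS12, whose protein uS12m sits at the decoding site, had the highest level in every wild type, with 174 RPKM ± 7.99 (SD, n = 6) in the OXPHOS set. RSM22, which encodes a methyltransferase-like protein needed for mitochondrial translation, had the lowest in every wild type, with 41.3 RPKM ± 2.34 (SD, n = 6) there. MRPS9, for uS9m of the subunit's head, stood next to the top in that set at 155 ± 11.1, and EHD3, for a 3-hydroxyisobutyryl-CoA hydrolase that is also found on the ribosome, stood next to the bottom at 52.3 ± 3.54. Between these ends the order was not resolved, since 27 of 32 pairs of neighbours lay within 1 SD of each other in the OXPHOS set and 20 of 32 in the INH1 set. The highest gene was thus 4.22-fold above the lowest in wild type of the OXPHOS set, and this ratio was 5.76 in rho0 of the same set.

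**Figure D1:**
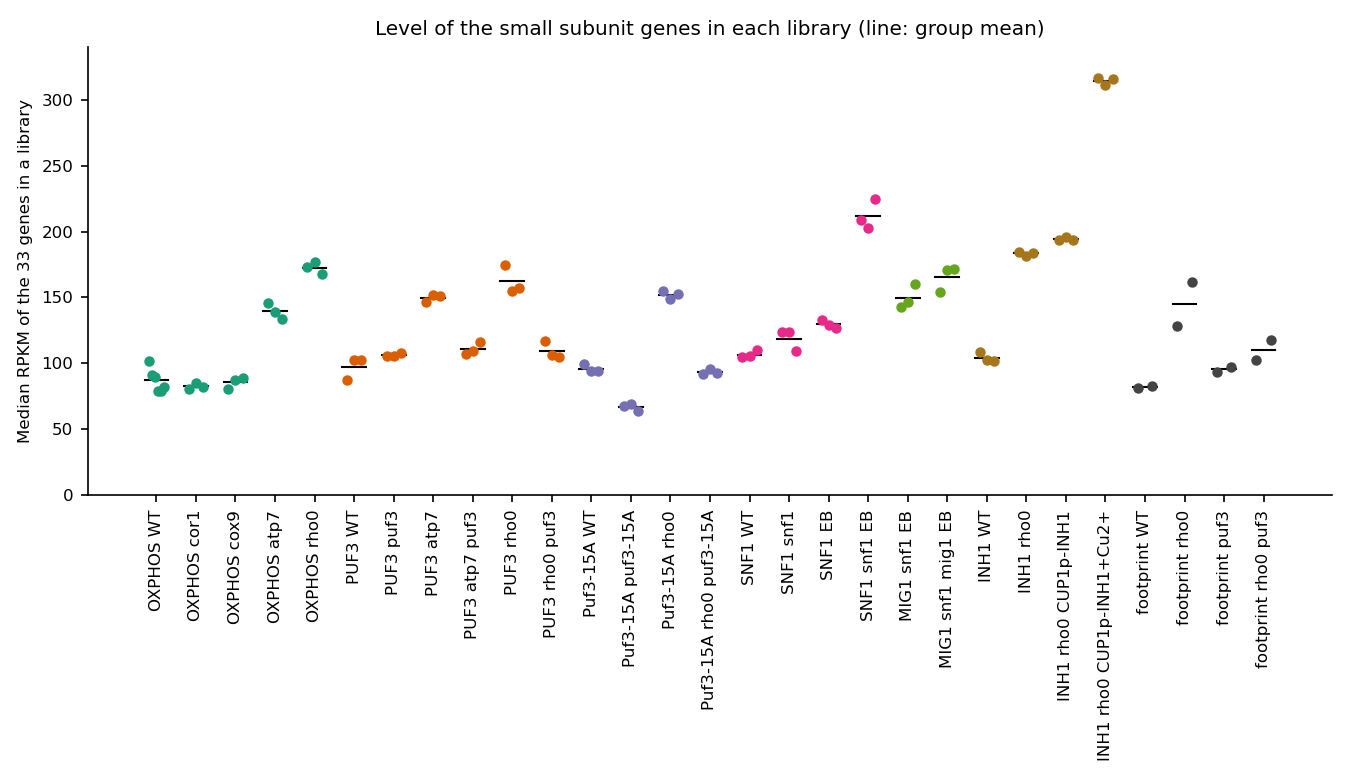
The median RPKM of the 33 genes (y axis) in each of the 86 libraries (points), by group (x axis), coloured by set, with the group mean as a line. The rho0 libraries of the OXPHOS set sit between 168 and 177 RPKM, above all wild-type libraries at 79.1 to 102, and the copper-treated libraries of the INH1 set are the highest at 311 to 316.

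Loss of complex III or IV changed few of these genes, and loss of the ATP synthase or of mitochondrial DNA raised nearly all of them. In the OXPHOS set the median over the genes lay between 79.1 and 102 RPKM in the 6 wild-type libraries, between 80.9 and 85.4 in cor1 and between 80.9 and 88.7 in cox9. It lay between 134 and 146 RPKM in atp7 and between 168 and 177 in rho0. The cor1 and cox9 libraries lay within the wild-type range, which joined 89.5 to 102 RPKM in libraries 1 to 3 with 79.1 to 82.1 in libraries 4 to 6, and below all of libraries 1 to 3. The atp7 and rho0 libraries lay above all wild-type libraries and apart from each other. Against wild type, 32 genes rose in atp7, with a median log2 change of 0.53 over the 33, where 21.6% of all genes tested were called higher. In rho0 32 rose with a median of 0.84, against 23.2% of all genes. The difference between rho0 and atp7 was itself called for 26 genes, all higher in rho0, with a median of 0.29 and a background of 13.9%. With wild-type libraries 1 to 3 alone 31 genes rose in atp7, and 32 rose and 1 fell in rho0, and with libraries 4 to 6 alone 33 and 32 rose. The gene that was not called in atp7 or rho0 over all 6 was KGD4, with changes of 0.04 and -0.18.

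In cor1 5 genes fell, with a median change of -0.10 over the 33, and 2.87% of all genes were called lower. In cox9 2 genes fell, with a median of -0.10 and a background of 3.06%. RSM22 fell in both, by 0.29 and by 0.26 on the log2 scale. Its level was 32.0, 35.5 and 33.4 RPKM in cor1 and 32.6, 34.3 and 35.9 RPKM in cox9, below the wild-type range of 38.3 to 45.2 RPKM (median 41.2). The other called falls in cor1 included RSM27, SWS2 and EHD3, and RSM18, for bS18m, was the other one in cox9. These counts were small and depended on the wild-type libraries: with wild-type libraries 1 to 3 alone they were 13 and 9, and with the groups compared fitted alone each was 1. Leaving out single libraries gave 1 to 5 in cor1, the 1 without cor1 replicate 2, and 1 to 4 in cox9, the 1 without cox9 replicate 1. With wild-type libraries 4 to 6 alone the count in cox9 was 4, and in cor1 4 were lower and 1 higher.

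The rho0 change was measured against separate wild-type cultures in 4 mRNA sets, and 31 of the 33 genes rose in all 4. The medians were 0.84 in the OXPHOS, 0.63 in the PUF3, 0.59 in the Puf3-15A and 0.64 in the INH1 set, with 32, 31, 31 and 32 genes called higher. The shares of all genes called higher in the last 3 sets were 20.4%, 29.3% and 35.0%. The order of the genes by size of change was much the same: between pairs of sets, which share no library, Pearson's r across the 33 genes was 0.90 to 0.95, and 0.86 to 0.93 without KGD4. The 33 points share libraries within each set, so this describes the sets and is no test. The OXPHOS and Puf3-15A sets, whose wild type was not low in a-specific genes, gave the largest and the smallest of the 4 medians.

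**Figure D2:**
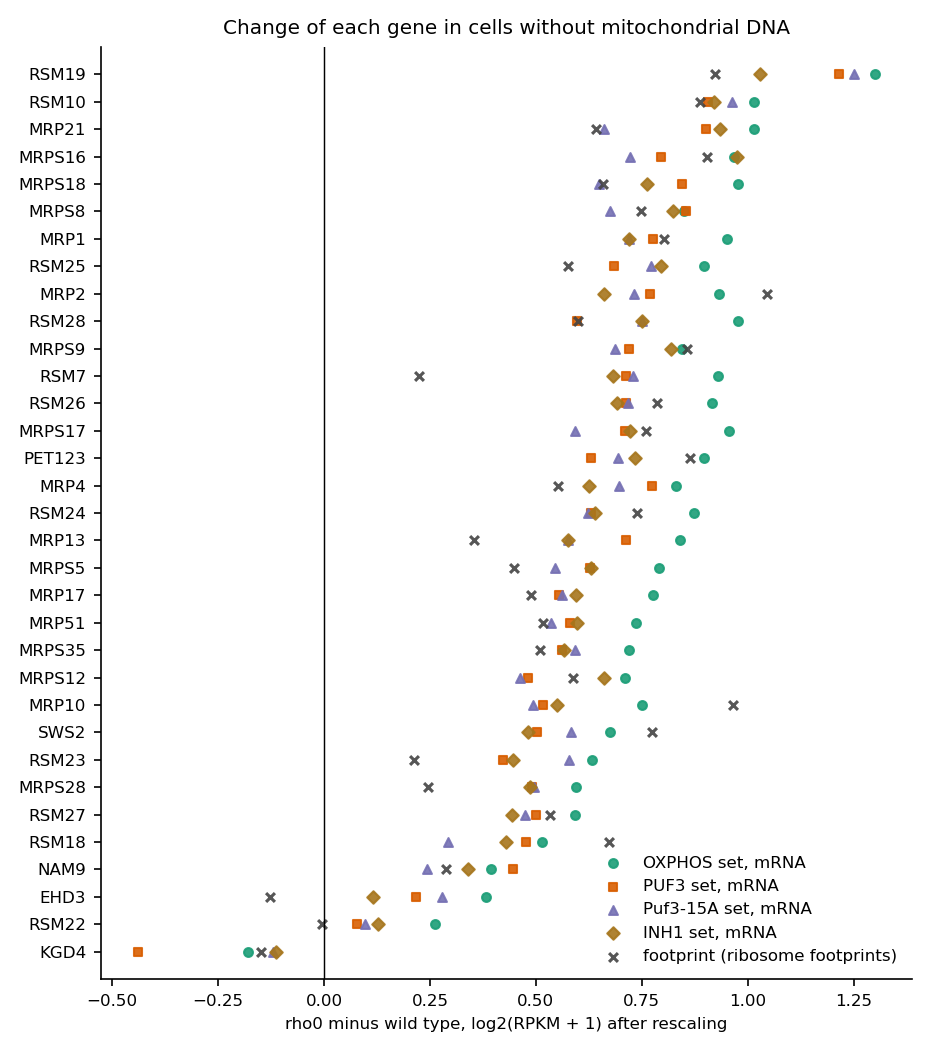
The log2 change from wild type to rho0 (x axis) of each of the 33 genes (y axis, ordered by the mean of the 4 mRNA sets), with a symbol for each mRNA set and a cross for the footprints. RSM19 is the highest in each mRNA set at 1.03 to 1.30, and KGD4 is the lowest in each, though its OXPHOS value of -0.18 is 0.08 against wild-type libraries 4 to 6 alone.

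RSM19 (YNR037C), for uS19m of the subunit's head, rose most in each set. In the OXPHOS set it went from 74.3 to 94.4 RPKM (median 81.1) in wild type to 218, 230 and 210 RPKM in rho0. In the PUF3 set it was 64.6, 98.3 and 81.8 RPKM in wild type and 187, 200 and 177 in rho0, and in the Puf3-15A set 89.3, 95.9 and 84.5 against 226, 205 and 218. In the INH1 set the values were 90.0, 94.2 and 99.0 RPKM in wild type and 201, 217 and 209 in rho0. No rho0 library overlapped wild type in any set, and the log2 changes were 1.30 ± 0.06 (SE), 1.21 ± 0.10, 1.25 ± 0.06 and 1.03 ± 0.04. RSM19 lies on chromosome XIV from 695052 to 695327 of the R64 annotation, 229 bases from MRPS12, which ends at 694822 and is the most highly expressed of the 33. MRPS12 rose less, by 0.46 to 0.71 on the log2 scale in the 4 sets.

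RSM10 (YDR041W), for uS10m of the head, was next. It ran from 79.3 to 91.6 RPKM (median 81.2) in wild type and was 191, 180 and 174 RPKM in rho0 of the OXPHOS set. In the Puf3-15A set it was 96.6, 76.4 and 81.3 RPKM in wild type and 157, 176 and 167 in rho0. MRP21 (YBL090W), for bS21m, followed. Its wild-type range in the OXPHOS set was 72.6 to 84.0 RPKM (median 79.2) and its rho0 values 172, 178 and 162. In both genes the groups were apart in all 4 sets, with log2 changes of 0.91 to 1.01 for RSM10 and 0.66 to 1.02 for MRP21. MRPS16 (bS16m) and MRPS18 (uS11m) came after them, with means over the sets of 0.86 and 0.81.

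At the other end EHD3 (YDR036C), NAM9 (YNL137C) and RSM18 (YER050C) rose by the least among genes called in all 4 sets. EHD3 was at 48.6 to 56.2 RPKM (median 52.4) in wild type and at 70.5, 77.0 and 72.4 in rho0 of the OXPHOS set. In the INH1 set its change was smaller, from 60.9, 61.1 and 61.7 RPKM to 71.9, 71.4 and 71.6, and its log2 changes over the sets ran from 0.12 to 0.38. NAM9, for uS4m, whose mutants were found as suppressors of a stop codon in a mitochondrial gene, was at 102 to 134 RPKM (median 114) in wild type and 162, 169 and 156 in rho0 of the OXPHOS set. In the Puf3-15A set NAM9 was at 113, 112 and 117 RPKM in wild type and 135, 135 and 138 in rho0, and over the 4 sets it changed by 0.24 to 0.45. RSM18 changed by 0.29 to 0.51, in the INH1 set from 146, 141 and 132 RPKM to 203, 214 and 193. The rho0 libraries lay above wild type for all 3 genes in each of these examples.

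RSM22 (YKL155C) and KGD4 (YFR049W) did not follow the rest. RSM22 was called higher in 2 of the 4 sets, with changes of 0.26, 0.08, 0.10 and 0.13, and in the PUF3 set its libraries overlapped at 37.8, 46.5 and 43.3 RPKM in wild type and 51.1, 41.1 and 43.1 in rho0. KGD4 changed by -0.18, -0.44, -0.12 and -0.11 and was called lower in the PUF3 set alone. In the OXPHOS set its value depended on the wild-type libraries, which were at 91.3 to 102 RPKM in 1 to 3 and 63.7 to 69.8 in 4 to 6, with 74.6, 72.1 and 82.1 in rho0 between them. Against libraries 1 to 3 alone it was called lower at -0.41 ± 0.08, and against 4 to 6 alone it was 0.08 ± 0.08 and not called. In atp7 these values were -0.19 ± 0.08, not called, and 0.27 ± 0.08, called higher. In the PUF3 set it was 83.1, 98.8 and 94.6 RPKM in wild type and 82.8, 58.2 and 64.1 in rho0, and 19.5% of all genes were called lower, and whether this change differs from that in the other sets was not tested. KGD4 encodes a small subunit of the alpha-ketoglutarate dehydrogenase complex of the citric acid cycle, and its product was earlier listed among mitochondrial ribosomal proteins.

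In atp7 of the PUF3 set, against the wild type with fewer a-specific transcripts, 30 genes rose, with a median of 0.41 where 25.3% of all genes were called higher. RSM19 went from the wild-type values given above to 193, 188 and 197 RPKM, a change of 1.12 ± 0.10. MRPS16 and MRPS8, for bS16m and uS8m, rose by 0.88 ± 0.06 and 0.70 ± 0.06, and RSM10 by 0.69 ± 0.05. In rho0 against atp7 of this set 23 genes were higher, with KGD4 lower at -0.39 and a median of 0.21 over the 33, and 21.9% and 14.3% of all genes were called higher and lower. The largest differences were those of MRP4 (uS2m, 0.42 ± 0.04), RSM26 (mS42, 0.35 ± 0.04), MRP1 (mS43) and RSM7 (uS7m). Without rescaling of the libraries 8 genes were higher and 2 lower, and without replicate 3 of atp7 14 were called in all.

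Deleting PUF3 had opposite signs in the wild-type and in the mutant backgrounds. In the otherwise wild-type strain 16 genes rose and 2 fell, with a median change of 0.14, and 8.88% and 6.71% of all genes were called higher and lower. In atp7 24 genes fell with a median of -0.30, although PUF3 deletion there lowered 1.97% of all genes. In rho0 29 fell and 1 rose, with a median of -0.53 and backgrounds of 15.8% and 14.6%. The change differed between backgrounds by the test of the difference itself: it was lower in atp7 than in wild type for 30 genes (median of the difference -0.51) and in rho0 than in wild type for 32 (-0.69), where 7.52% and 37.0% of all genes were called in either direction. KGD4 was the 1 gene with a called difference of the other sign, 0.49 ± 0.12 and 0.81 ± 0.12. By genes, 13 rose in wild type and fell in rho0, and 9 of these also fell in atp7. With 29 genes lower in rho0, most of any 16 genes would be among them, so the 13 do not set the risers apart. The share of all genes with both changes was not counted. The count in wild type, 18 in all, was 11 and 9 without wild-type replicate 2 or 3, 9 without puf3 replicate 2, 10 without rescaling and 3 with those groups fitted alone. Wild type of this set is the group with fewer a-specific transcripts, which the comparisons within atp7 and rho0 do not use.

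MRPS9 (YBR146W), MRP4 (YHL004W) and MRPS5 (YBR251W), for uS9m, uS2m and uS5m, showed both signs. MRPS9 was at 156, 167 and 169 RPKM in wild type and 222, 215 and 200 in puf3, at 244, 251 and 247 in atp7 and 190, 197 and 201 in atp7 puf3, and at 312, 254 and 250 in rho0 and 197, 174 and 183 in puf3 rho0. It was thus higher without PUF3 in wild type and lower without PUF3 in both mutants, with no overlap in any pair. Its log2 changes were 0.42 ± 0.06 in wild type, -0.30 in atp7 and -0.60 in rho0. MRP4 was at 112, 123 and 122 RPKM in wild type and 125, 133 and 132 in puf3, at 165, 165 and 170 in atp7 and 113, 107 and 116 in atp7 puf3, and at 214, 198 and 201 in rho0 and 118, 121 and 125 in puf3 rho0. MRPS5 was at 53.1, 65.1 and 60.8 RPKM in wild type and 68.3, 75.3 and 71.8 in puf3, and at 101, 89.6 and 87.1 in rho0 and 54.4, 60.3 and 59.2 in puf3 rho0. In puf3 rho0 all 3 genes lay well below rho0, and at or below the levels in puf3. The largest rises in wild type were those of RSM19 (0.59 ± 0.10), MRP2 for uS14m (0.55 ± 0.07), MRPS9 and SWS2 for uS13m (0.38 ± 0.06).

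The largest falls in rho0 were those of MRPS17 (YMR188C), MRPS35 (YGR165W), MRP13 (YGR084C) and NAM9, and none of these was called in wild type. MRPS17, for uS17m, was at 180, 155 and 148 RPKM in rho0 and 88.8, 80.4 and 85.3 in puf3 rho0, a change of -0.96 ± 0.05. MRPS35 and MRP13, for proteins without a bacterial counterpart, changed by -0.94 ± 0.05 and -0.93 ± 0.05, and NAM9 by -0.91 ± 0.04, from 175, 165 and 165 RPKM to 95.2, 88.9 and 92.2. In each the groups were far apart. MRP13 also fell most in atp7 (-0.68 ± 0.05), from 106, 109 and 110 RPKM to 64.3, 64.7 and 67.3, followed by RSM24, RSM25 and MRPS17. RSM19 did not change by the test in rho0, with 187, 200 and 177 RPKM against 166, 184 and 194 in puf3 rho0, and its libraries overlapped there, as did those in atp7.

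RSM28 (YDR494W), whose protein mS46 takes part in the start of translation, was the 1 gene called lower in all 3 backgrounds. It was at 86.9, 103 and 103 RPKM in wild type and 85.4, 84.5 and 80.0 in puf3, a change of -0.17 ± 0.05, and at 166, 139 and 141 RPKM in rho0 and 98.9, 95.8 and 93.1 in puf3 rho0. KGD4 went the other way from the majority in wild type and in rho0, and in atp7 its 0.18 ± 0.08 was not called. It was at 72.9, 66.2 and 75.9 RPKM in puf3, below its wild-type values above, and at 105, 97.5 and 96.8 RPKM in puf3 rho0, above its rho0 values. Its log2 change was -0.31 ± 0.08 in wild type and 0.50 ± 0.08 in rho0.

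Without PUF3 the loss of the ATP synthase or of mitochondrial DNA no longer gave a common rise. Against puf3, atp7 puf3 had 5 genes higher and 14 lower with a median of -0.08, and backgrounds of 30.7% and 32.8%. Against puf3, puf3 rho0 had 5 higher and 11 lower with a median of -0.06, and backgrounds of 29.1% and 31.1%. The 11 and the 5 were thus near or under the share of all genes, and the 14 lay above it. If the libraries were not rescaled, 8 were higher and 4 lower for atp7 and 8 higher and 6 lower for rho0, so the direction of these small changes is not settled. RSM19, MRPS16, RSM10 and KGD4 were the largest rises in both, RSM19 with 0.58 ± 0.10 and 0.52 ± 0.10. RSM22 and NAM9 were the largest falls in both, RSM22 with -0.43 ± 0.06 and -0.57 ± 0.06.

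**Figure D3:**
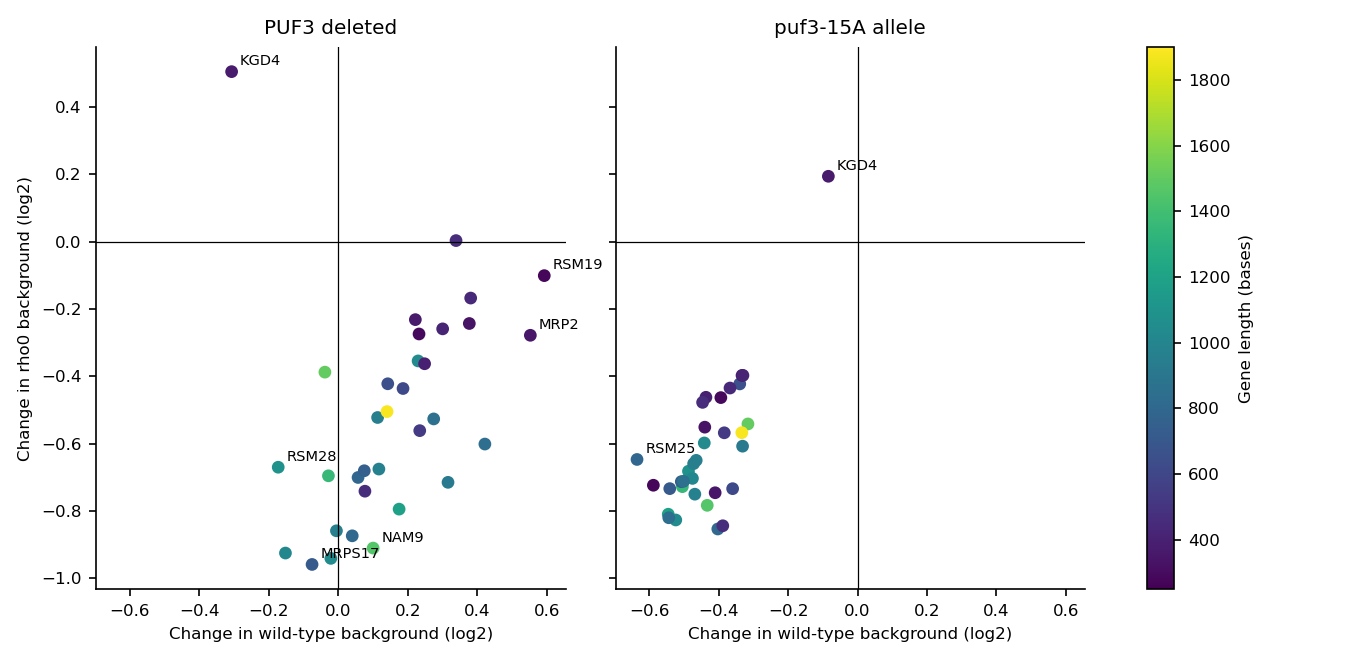
The log2 change of each of the 33 genes on PUF3 deletion (left) and with the puf3-15A allele (right), in the wild-type background (x axis) against the rho0 background (y axis), coloured by gene length. On the left most genes lie right of 0 and below 0, RSM19 at 0.59 and -0.10, while on the right all but KGD4 lie below 0 in both.

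The size of the PUF3 change went with gene length, a property the choice of genes did not use, and so did some changes that do not involve PUF3. Over the 33 genes Spearman's rho between annotated length and the log2 change was -0.53 in wild type, -0.58 in atp7 and -0.62 in rho0, with -0.02, 0.06 and 0.06 over all protein-coding genes tested. Among the 11 genes under 500 bases 9 rose and 1 fell in wild type (median 0.30) and 7 fell in rho0 (median -0.24). Among the 22 longer ones 7 rose and 1 fell in wild type (median 0.11) and 22 fell in rho0 (median -0.68). The 43 genes of the large subunit gave -0.72 in wild type and -0.59 in rho0. They also gave -0.68 for atp7 against wild type of the PUF3 set, where both groups have PUF3 and the 33 genes gave -0.38. The footprint libraries, which were made separately, gave -0.61 for puf3 against wild type and -0.70 for puf3 rho0 against rho0. Over all protein-coding genes tested these footprint values were -0.16 and 0.10. Values of similar size were found for MIG1 deletion (-0.57), for rho0 against wild type in footprints (-0.52), and for atp7 puf3 and puf3 rho0 against puf3 (-0.62 and -0.58). The puf3-15A allele gave -0.22 in wild type and -0.37 in rho0. This relation was sought after the values were seen, the points share libraries, and it is given as a description. Of the short genes 8 of 11 encode bacterial homologues, and these classes differed in wild type in the same way, with 13 of 18 homologues rising (median 0.24) against 3 of 15 others (0.04). Within the homologues the median change in rho0 was -0.25 for the 8 short and -0.64 for the 10 long genes, and within the others -0.24 for 3 short and -0.69 for 12 long ones. In wild type these medians were 0.32 and 0.18, and 0.23 and 0.02. The part of read counting in short genes was not tested.

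**Figure D4:**
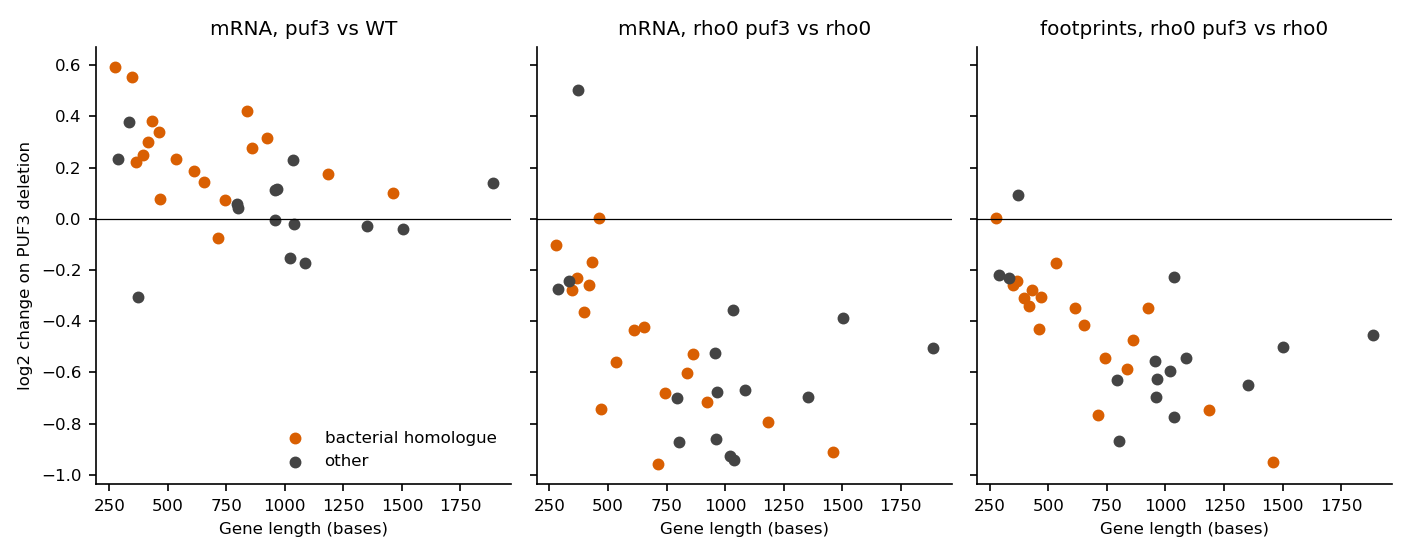
The log2 change on PUF3 deletion (y axis) against gene length in bases (x axis) for the 33 genes, coloured by class, in wild type (left, mRNA), in rho0 (middle, mRNA) and in rho0 (right, footprints). Longer genes lie lower in all 3 panels, with Spearman's rho of -0.53, -0.62 and -0.70.

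The phosphosite allele lowered the genes in both backgrounds. In wild type puf3-15A lowered 32 genes with a median of -0.44, and in rho0 it lowered 32 with a median of -0.66, where 7.42% and 8.71% of all genes were called lower. The same 32 genes were called in both, and KGD4 was not, with changes of -0.08 and 0.19. The median over the genes was 94.2 to 99.5 RPKM in the wild-type libraries, 64.1 to 69.0 in puf3-15A, 149 to 155 in rho0 and 91.9 to 95.5 in puf3-15A rho0. Wild type and puf3-15A rho0 overlapped, and no other groups did. All 16 genes that PUF3 deletion raised in wild type were lowered there by the allele. As the allele lowered 32 genes there, all but KGD4, this overlap does not set the 16 apart from the others. These comparisons come from different sets with their own controls, and the difference between the deletion and the allele was not tested.

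RSM25 (YIL093C), for mS23, fell most in wild type with the allele. It was at 69.2, 70.3 and 71.3 RPKM in wild type and 44.5, 44.5 and 42.0 in puf3-15A, a change of -0.64 ± 0.04, and at 127, 114 and 124 RPKM in rho0 and 75.8, 74.6 and 74.0 in puf3-15A rho0. RSM19 (-0.59 ± 0.06), MRP4 and MRPS9 followed. In rho0 RSM26, for a protein related to superoxide dismutase, fell most, from 169, 169 and 162 RPKM to 94.6, 87.3 and 84.9 (-0.85 ± 0.04), and MRPS8, MRPS35 and MRPS9 came next. The allele's change was lower in rho0 than in wild type for 15 genes (median difference -0.20, with 18.8% of all genes called in either direction). MRPS8 and RSM26 led at -0.46 ± 0.10 and -0.45 ± 0.06. The count of 15 ran from 8 to 16 when single libraries were left out, with 8 or 9 without any 1 library of rho0 or without puf3-15A replicate 2. This difference was not particular to these genes. The 56 genes of the cytosolic small subunit had a median difference of -0.19, with 21 called lower and 0 higher. The rho0 rise was still present with the allele: 29 genes were higher in puf3-15A rho0 than in puf3-15A with a median of 0.41, where 32.9% of all genes were called higher. RSM19 led at 1.11 ± 0.06, and NAM9 was called lower at -0.11 ± 0.04, against 32.6% of all genes called lower.

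Ethidium bromide, which removes mitochondrial DNA from growing yeast, raised the genes in wild type and more so in snf1. The median over the genes was 105 to 110 RPKM in untreated wild type, 109 to 124 in snf1, 127 to 133 after EB and 203 to 225 in snf1 after EB. Each EB group lay above its untreated control, and snf1 after EB lay above all others. After EB 26 genes were higher in wild type with a median of 0.28 where 35.0% of all genes were called higher, and 31 in snf1 with a median of 0.72 where 25.7% were higher and 33.2% lower, KGD4 being the 1 that fell. The difference between those changes was called for 27 genes as larger in snf1 and for KGD4 as smaller (median 0.44, with 46.2% of all genes called in either direction). After EB 28 genes were higher and 2 lower in snf1 than in wild type with a median of 0.47, against 29.4% and 31.6% of all genes. Without rescaling the median of all genes itself moved by 0.25 in that comparison, and the difference of RSM10 then changed sign and was no longer called. In untreated cells EHD3 was higher (0.27 ± 0.07) and MRPS8 and RSM10 were lower in snf1 (-0.26 ± 0.09 and -0.25 ± 0.05), so that 1 gene was higher and 2 were lower with a median of 0.06 and backgrounds of 13.0% and 16.1%. Without rescaling 15 were higher there, and with median-ratio size factors 3 were higher and 1 lower. Both snf1 groups were low in the a-specific and haploid genes, whose part was not tested.

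RSM10 rose most after EB in wild type (0.91 ± 0.05), from 116, 115 and 118 RPKM to 216, 204 and 211. In snf1 after EB it was at 221, 197 and 222 RPKM, a called difference of -0.25 ± 0.05 from EB in wild type although the deposited values overlapped. KGD4 (0.76 ± 0.08), RSM28 and MRPS12 were the next largest rises. RSM19 was at 102, 102 and 101 RPKM in wild type, 127, 139 and 110 in snf1, 142, 126 and 168 after EB, and 301, 274 and 319 in snf1 after EB, where it had the largest rise from untreated snf1 at 1.18 ± 0.10.

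RSM22 and KGD4 again left the common pattern, in opposite ways. RSM22 fell after EB in wild type, from 45.0, 45.7 and 47.4 RPKM to 28.1, 29.1 and 30.1 (-0.58 ± 0.06), where 37.0% of all genes were called lower, and in snf1 it was between 50.0 and 61.9 RPKM before and between 60.3 and 67.1 after. The fall was thus seen in wild type and not in snf1. The difference was 0.69 ± 0.08, where 46.2% of all genes were called in either direction. KGD4 rose after EB in wild type, from 98.7, 97.2 and 110 RPKM to 175, 157 and 165, and fell in snf1, from 116, 133 and 119 RPKM to 100, 102 and 96.6 (-0.35 ± 0.08). The difference was -1.12 ± 0.11. MRPS8, MRP4 and MRP13 had the largest differences of the other sign, at 0.87 ± 0.12, 0.73 ± 0.09 and 0.67 ± 0.08. MRP13 was at 80.4, 84.3 and 81.6 RPKM after EB in wild type and at 174, 174 and 179 in snf1 after EB.

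**Figure D5:**
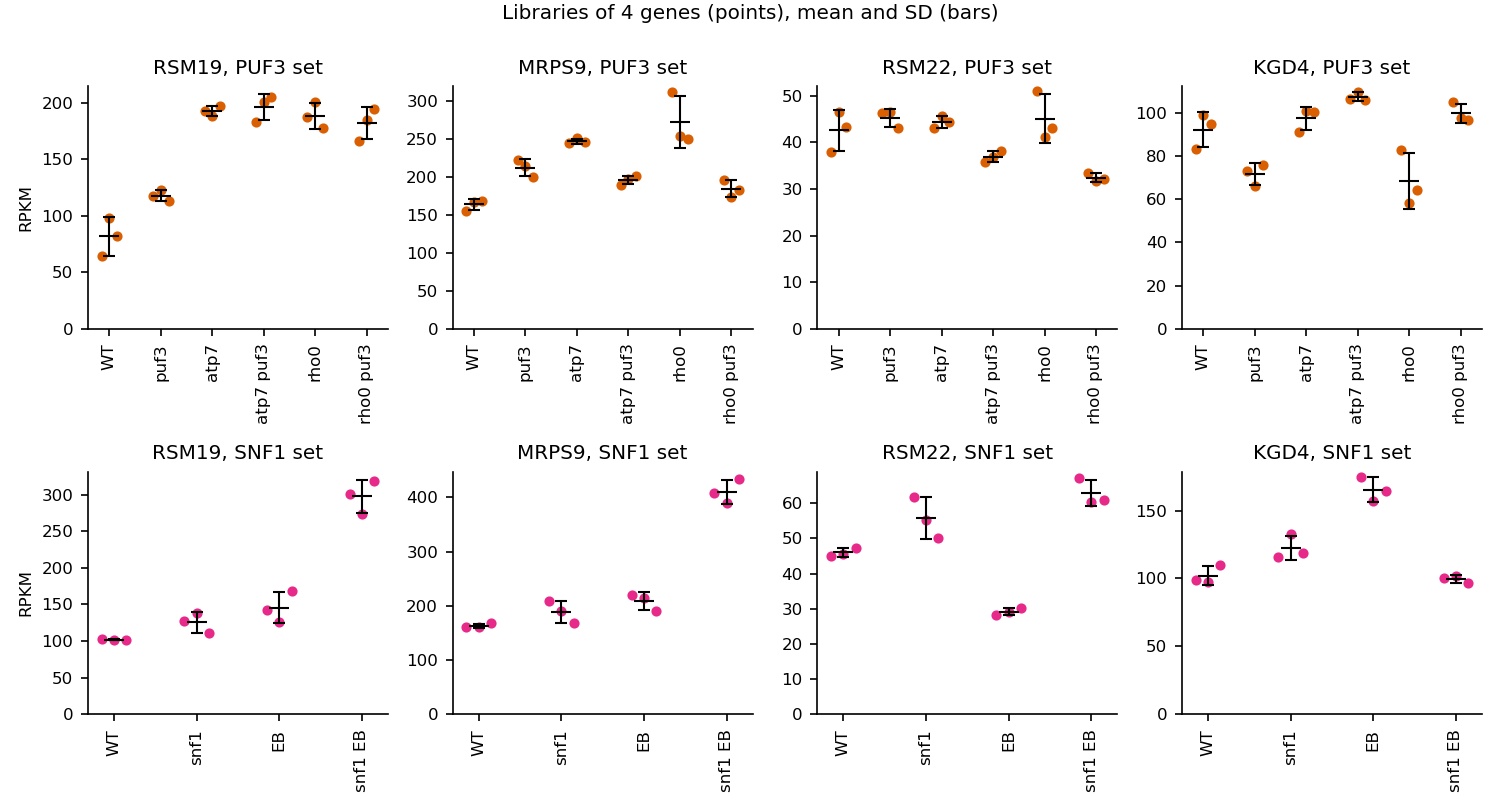
RPKM (y axes, from 0) of RSM19, MRPS9, RSM22 and KGD4 in each library (points) of the PUF3 set (top) and the SNF1 set (bottom), with group means and SD (bars, n = 3). RSM22 falls and KGD4 rises after EB in wild type, and KGD4 is lower in rho0 than in puf3 rho0.

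Deleting MIG1 in snf1 cells treated with EB raised 20 genes with a median of 0.26, where 15.8% of all genes were called higher. KGD4 rose most (0.53 ± 0.05), from 70.6, 70.3 and 78.2 RPKM to 95.1, 100 and 108, with no overlap. MRPS5 rose by 0.47 ± 0.06, from 66.2, 69.3 and 77.7 RPKM to 91.5, 88.6 and 103, followed by MRP10 and RSM19. The medians over the genes, 143, 147 and 160 RPKM in snf1 and 155, 171 and 172 in snf1 mig1, overlapped between groups. Within each same-numbered pair snf1 mig1 was higher, and 29 genes were higher in all 3 pairs. The share of all genes that were higher in all 3 pairs was not counted. With the pairs as a block 24 genes were called. The count was 7 without rescaling, and it fell to 9 without replicate 1 or 2 of snf1 or without replicate 2 of snf1 mig1.

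Copper given to rho0 cells with CUP1p-INH1 raised all 33 genes, by 0.32 to 0.84 with a median of 0.60, and 34.8% of all genes were called higher. The median over the genes was 311 to 316 RPKM after copper, 194 to 196 without it, 182 to 185 in rho0 and 101 to 109 in wild type, and no group overlapped another. MRPS16 was at 313, 309 and 309 RPKM before and 584, 588 and 576 after copper, a change of 0.84 ± 0.03. EHD3, among the least responsive to loss of mitochondrial DNA, rose as much (0.84 ± 0.03), from 74.3, 74.0 and 79.5 RPKM to 143, 145 and 143. MRP10, for a small cysteine-rich protein, and MRPS8 rose by 0.77 ± 0.04 and 0.74 ± 0.03. KGD4 went from 106, 116 and 97.7 RPKM to 151, 163 and 170. The construct without copper raised 6 genes and lowered 1, RSM22 (-0.11 ± 0.03), with a median of 0.07 and backgrounds of 9.86% and 7.81%. RSM19 was the largest of the 6 at 0.23 ± 0.04, and the count of 7 ran from 2 to 6 when single libraries were left out, with 2 to 4 without rho0 replicate 1 or without any 1 library of the construct strain. Without rescaling 9 were higher and 0 lower.

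Footprints, which count ribosomes on an mRNA, followed the mRNA. In rho0 22 genes had more footprints than in wild type with a median of 0.60, where 12.3% of all genes were called higher. MRP2 led at 1.05 ± 0.12, from 139 and 157 RPKM to 352 and 318, and MRP10 (0.96 ± 0.09), RSM19 and MRPS16 came next. MRP10 was at 95.7 and 82.6 RPKM in wild type and 184 and 197 in rho0. PUF3 deletion in wild type raised the footprints of 4 genes, with a median of 0.18 and a background of 1.01%, namely MRP2, RSM19, MRP10 and SWS2. In rho0 it lowered 11 genes, with a median of -0.45 and a background of 2.79%. NAM9 fell most (-0.95 ± 0.10), from 95.2 and 109 RPKM to 55.8 and 60.4, followed by RSM26, MRPS35 and MRPS17. Across the 33 genes the footprint change on PUF3 deletion and the mRNA change, from separate libraries, had a Pearson's r of 0.84 in wild type and 0.83 in rho0, given as a description. With 2 libraries a group these counts depended on each of them, and leaving out 1 library gave 0 to 1 and 0 to 4 genes for the PUF3 comparisons and 15 to 24 for rho0.

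For footprints per mRNA, the translational efficiency, few genes were called, with 2 footprint libraries a group. In rho0 MRP10 was the 1 gene called, higher by 0.44 ± 0.10 (limma adjusted p = 0.021), and 3.75% of all genes were called higher. In puf3 rho0 against rho0 MRPS8 was the 1 gene called, higher by 0.43 ± 0.12 (limma adjusted p = 0.042), with a background of 3.27%. That call was lost with the replicate block, and leaving out single libraries gave 0 to 2 called genes. For rho0 the count ran from 0 to 3, and 1 of 33 genes is no larger a share than that of all genes in either comparison. For PUF3 deletion in wild type 0 of 33 genes were called by limma, 1 had an unadjusted p under 0.05, and 0.590% of all genes were called. Members ran from -0.24 to 0.42 in that comparison. They ran from -0.50 to 0.44 for rho0 against wild type and from -0.44 to 0.43 for puf3 rho0 against rho0. There 6 and 5 genes had an unadjusted limma p under 0.05. As levels, the ratio of mean footprint RPKM to mean mRNA RPKM in wild type had a median of 0.82 over the 33 genes and 0.63 over all protein-coding genes. It was highest for MRP2 at 1.49 and lowest for RSM22 at 0.51, and in the other 3 genotypes MRP2 reached 2.14 and RSM22 0.58 at most. The wild-type libraries of the 2 assays differed in the mating genes as given above.

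Most other genes of mitochondrial translation moved with the small subunit in rho0. Of the 43 large subunit genes, 43 rose in rho0 in each of the 4 mRNA sets, with medians of 0.88, 0.69, 0.64 and 0.66. The shares of all genes called higher were 23.2%, 20.4%, 29.3% and 35.0%. On PUF3 deletion in rho0 40 of the 43 fell with a median of -0.55, where 15.8% of all genes were called lower. Of 9 translation factors of mitochondria, 7 rose and 1 fell in rho0 of the OXPHOS set. Of 6 further genes tied to the small subunit, 5 were tested there and 4 rose. In that comparison 23.2% of all genes were called higher and 26.7% lower. The 56 genes of the cytosolic small subunit went the other way in rho0 of the OXPHOS set, where 55 fell and 1 rose with a median of -0.49, against 26.7% of all genes called lower. The size of this differed between sets. In the PUF3 set 17 fell and 0 rose with a median of -0.20, near the 19.5% of all genes called lower. The medians were -0.37 in the Puf3-15A and -0.65 in the INH1 set. With PUF3 deletion in rho0 38 of the 56 cytosolic genes fell, with a median of -0.31, against 15.8% of all genes called lower. There they moved in the same direction as the mitochondrial genes. On PUF3 deletion in wild type 17 large subunit genes rose and 2 fell, against 8.88% and 6.71% of all genes. Of the translation factors 1 rose and 1 fell there (median -0.09), and 0 of the 5 further genes were called. The EB change differed between wild type and snf1 for 6 factors, 3 in each direction, against 46.2% of all genes.

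Across the 25 mRNA groups, each centred on its set, the members followed one another closely with few exceptions. Pearson's r of a member with the mean of the other 32 was 0.85 or higher for 31 of them and highest for MRP17 at 0.99. It was 0.55 for RSM22 and 0.01 for KGD4. Among 6924 genes outside the lists the nearest to the members' mean were CBP3, which encodes an assembly factor that binds cytochrome b and the mitochondrial ribosome (r = 0.99 over 25 groups), and MAM33, which encodes an acidic matrix protein (0.99). YJR114W, COX23 and the mitochondrial tyrosyl-tRNA synthetase gene MSY1 came next, each at 0.98. YJR114W has no entry in the annotation used, and its identifier is the one after that of the member RSM7. Without a position for it, whether it shares reads with RSM7 could not be checked, so its r may not be separate from that member. Groups within a set share a common centre, so these values are descriptions.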

How the data were processed

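The authors deposited RPKM per gene for each library, made from polyadenylated mRNA or ribosome footprints. Per the submitters' processing notes, tools included STAR 2.6.1a and featureCounts, with the R64 build and also CASAVA 1.9 and edgeR 3.28.1. Whether counting used strand is not given in the sources used here. Values recovered as reads were whole within 0.05 for at least 96.2% of the genes checked. Those were detected protein-coding genes with lower read numbers in each library, so the highest were left out. Each set was rescaled by trimmed mean of M values (trims of 30% and 5%), filtered at 1 RPKM in as many libraries as a group holds, and fitted as log2(RPKM + 1) with limma 3.58.1 in R 4.3.3, using 1 mean per group and Benjamini-Hochberg adjustment over all genes at 0.05. The fit was tested on simulated data. Python 3.11.15 was used. Alternatives were other scalings, no filter, a pseudocount of 0.1, a replicate block, the compared groups alone, single libraries left out, wild-type subsets and voom on recovered reads. Named genes were the largest called changes of each comparison, and values by library are given for some of those that the rule names. Members and lists were chosen with earlier results of these data known. The length split, the mating-type lists and values without KGD4 were chosen after seeing the data. In the MIG1 set same-numbered libraries deviated together (r of 0.13 to 0.43 over 3 pairs), so those numbers may pair the samples. The main fit did not use pairs. Single same-numbered pairs reached 0.36 in the PUF3 set and 0.40 in the SNF1 set. A split by Puf3 motif was not run because no sequence was used here. The annotation is of another strain than W303-1A.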

Additional observations from a re-analysis of the deposited data

Results flagged for a closer look

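SWS2 in wild-type replicate 1 of the OXPHOS set, at 140.8 RPKM, stood far from the other wild-type libraries of that set. Of 33 such groups tested 1 was flagged, and chance flags about 1 in 20.

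The change on PUF3 deletion differed between wild type and atp7 for 31 genes and between wild type and rho0 for 33, by limma's test of the difference. The largest log2 differences in atp7 were those of MRPS9 (-0.72), MRP4 (-0.71), RSM25 (-0.66) and MRPS5 (-0.60), with KGD4 at 0.49. In rho0 they were those of MRPS5 (-1.03), MRPS9 (-1.02), NAM9 (-1.01) and MRP4 (-0.97), with KGD4 at 0.81. The puf3-15A change differed between wild type and rho0 for 15 genes, led by MRPS8 (-0.46), RSM26 (-0.45), RSM10 (-0.37) and NAM9 (-0.35). The EB change differed between wild type and snf1 for 28, with MRPS8 at 0.87, MRP4 at 0.73, RSM22 at 0.69, MRP13 at 0.67 and KGD4 at -1.12.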

How the results depend on the processing

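Of 491 alternative counts 420 stayed within 1.5 times the count given, 61 moved and 10 had the other majority. Of 2066 alternative values of named genes 1930 kept direction and call, 135 kept direction alone, and RSM10 in snf1 after EB against EB turned to 0.020 without rescaling (limma adjusted p = 0.82). Without rescaling the counts were 2 in cor1, 10 for puf3, 12 for atp7 puf3 and 14 for puf3 rho0 against puf3, 10 for rho0 against atp7 of the PUF3 set, 15 for snf1, 7 for MIG1, and 4 for footprints of puf3 rho0 against rho0. With the replicate block they were 12 in cor1, 6 in cox9, 2 for footprints of puf3 and 0 for efficiency in puf3 rho0, and the block moved no other count by over 1.5 times. Apart from the MIG1 set same-numbered libraries had a median r of 0.05 or less. With the compared groups alone the counts were 1 in cor1, 1 in cox9, 3 for puf3, 5 for snf1 and 0 for both PUF3 footprint comparisons. Wild-type libraries 1 to 3 gave 13 and 9 in cor1 and cox9, and libraries 4 to 6 gave 4 in cox9. For snf1 median-ratio factors gave 4 and voom 6, and voom gave 11 for the construct without copper. Leaving out single libraries gave 1 to 5 in cor1, 1 to 4 in cox9, 9 to 20 for puf3, 14 to 25 for rho0 against atp7 of the PUF3 set, 8 to 16 for the allele's difference between backgrounds, 2 to 3 for snf1, 9 to 26 for MIG1 and 2 to 6 for the construct. For footprints it gave 0 to 1 for puf3 and 0 to 4 for puf3 rho0, and for efficiency 0 to 3 in rho0 and 0 to 2 in puf3 rho0. With a lone library left in a group, it is assumed to vary like the others. Footprint counts rest on 2 libraries a group and on fewer reads than the mRNA libraries, and these limits were not compared.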
